A study of Canis lupus familiaris with 2 samples.

Results

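The superfamily of miR-15, miR-16 and miR-195 with miR-103 and miR-107 was examined on 2 microarrays of dog serum. Its members were taken by name: every dog spot on the chip named miR-15, miR-16, miR-195, miR-424, miR-497, miR-503, miR-103 or miR-107, whatever its letter. The rule gave 9 of the 291 dog miRNAs. The miR-15/miR-16 branch had 7 members, cfa-miR-15a, cfa-miR-15b, cfa-miR-16, cfa-miR-195, cfa-miR-424, cfa-miR-497 and cfa-miR-503. The miR-103/miR-107 branch had 2 members, cfa-miR-103 and cfa-miR-107. One array held RNA from serum of 3 normal dogs and the other RNA from serum of 3 dystrophic dogs, pooled by group. All dogs were male, 2 months old and from the CXMD_J colony, in which an X-linked muscular dystrophy serves as a model of Duchenne muscular dystrophy. The labels name no treatment. With 1 array for each condition there was no replicate error, and no test between normal and dystrophic serum was made.

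miRNAs of this superfamily share a run of bases near the 5′ end, the part of a miRNA that pairs with its target mRNAs. Members of the miR-15/miR-16 branch are known for lowering the mRNAs of cell cycle proteins such as cyclins and of the survival protein BCL2. miR-424 and miR-503 come from neighboring genes and are known from differentiating myoblasts, in which they promote exit from the cell cycle. miR-195 and miR-497 are known as brakes on the division of heart and muscle cells. miR-103 and miR-107 lie in genes of pantothenate kinase, an enzyme of coenzyme A synthesis, and are known for effects on insulin sensitivity. miR-16 is abundant in red blood cells, and both miR-16 and miR-103 are often used as reference miRNAs in serum RT-qPCR.

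Each array had 3200 spots, with 1 spot for each dog miRNA and 1408 blank spots, and the intensity is the brightness of a spot. The detection limit was set 2 SD over the average blank spot, after 5% of the blank spots had been trimmed at each end. The limit was 126 for the normal array and 124 for the dystrophic one. The limit lay within the spread of the background, since 8.59% to 9.38% of blank spots passed it, as did 23.8% to 26.5% of the 181 spots carrying no probe. Of the 32 negative control spots of each array, 21 passed it on the normal array and 27 on the dystrophic one. Detection alone therefore did not set a spot apart from the background. The normalized signal is the intensity minus the mean blank spot, scaled so that the detected dog miRNAs of an array had a median of 25. The ratio is the normalized signal in dystrophic over that in normal serum. A 95% noise interval for each ratio was calculated from the spread of the blank spots and of replicate control spots. The interval takes the scale factor of each array as fixed, and it leaves out differences between dogs, RNA preparations and arrays. As a check of the labels, the skeletal muscle miRNAs miR-133a, miR-133b, miR-133c and miR-206 had ratios from 12.6 to 152, and miR-1 passed the limit only on the dystrophic array.

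Of the 9 members, 7 were detected on both arrays. miR-107 was detected in normal serum alone and miR-497 in dystrophic serum alone. Among all 291 dog miRNAs, 142 were detected on both arrays, 17 in normal serum alone and 46 in dystrophic serum alone. The members differed widely in how far their spots stood above the background. On the normal array the spots of miR-15b, miR-16 and miR-503 exceeded a brightness reached by no more than 2.5% of spots without a probe. On the dystrophic array the spots of miR-16, miR-503 and miR-103 did so. The remaining member spots lay below this level.

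**Figure D1:**
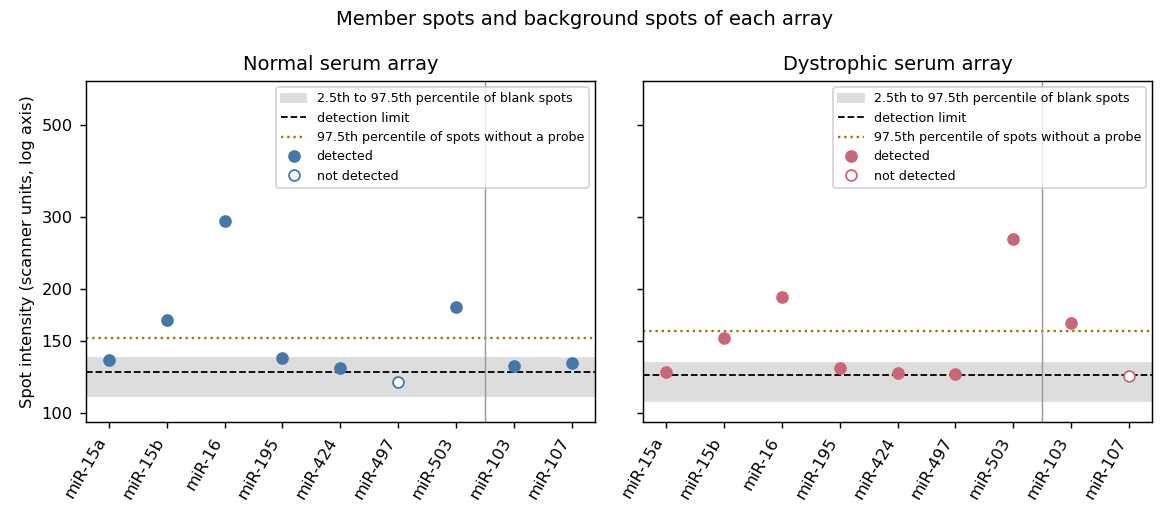
Spot intensity of each member (log axis, scanner units) on the array of normal serum (left) and of dystrophic serum (right), with the central 95% of the blank spots as a grey band, the detection limit as a dashed line and the level exceeded by 2.5% of the spots without a probe as a dotted line. Filled points were detected. miR-16 (293 and 192) and miR-503 (181 and 265) stood above the grey band and the dotted line on both arrays. By contrast, miR-15a, miR-195, miR-424, miR-497 and miR-107 stayed within or close to the grey band.

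In the miR-15/miR-16 branch, miR-16 was lower in dystrophic serum and miR-503 was higher. The spot of miR-16 read 293 on the normal array and 192 on the dystrophic one, and its normalized signal was 182 and 62.7. The area around the spot read 176 and 149. The ratio was 0.346, with a noise interval from 0.262 to 0.445. Only 1 of the 142 miRNAs detected on both arrays had a lower ratio, the red-cell miRNA miR-451. By brightness, miR-16 was number 13 of the 159 miRNAs detected in normal serum and number 51 of the 188 detected in dystrophic serum, an order that does not depend on the scaling between the arrays. No blank spot of the normal array and 1 of the dystrophic array was as bright as its spot. The probe of miR-16 reads the product of a pair of genes, MIR16-1 and MIR16-2, and cannot tell them apart.

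miR-15b is made next to miR-16, from MIR15B beside MIR16-2. Its spot read 168 on the normal array and 152 on the dystrophic one, and its normalized signal was 52.2 and 30.0. The ratio was 0.576, with a noise interval from 0.339 to 0.918. At the scaling used, miR-15b too was thus lower in dystrophic serum by more than the spot noise. Without scaling the ratio was 0.724, and with scaling on the spike controls 0.749. Both were nearer to 1, and no noise interval was computed for them. The reported ratio of miR-15b was above 0.5. By brightness it was number 47 in normal and number 83 in dystrophic serum. The ratio of miR-16 relative to that of miR-15b was 0.600, with a noise interval from 0.349 to 1.08, and the spot noise therefore did not separate these neighbors.

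miR-503 was higher in dystrophic serum, whereas miR-16 and miR-15b were lower. Its spot read 181 on the normal array and 265 on the dystrophic one, and its normalized signal was 65.9 and 123. The area around the spot read 134 and 199. The ratio was 1.87 (noise interval 1.42 to 2.56), below 2-fold, and 22 of the 142 miRNAs had a higher ratio. By brightness miR-503 was number 39 in normal and number 26 in dystrophic serum. Relative to miR-16 its ratio was 5.42 times as high (noise interval 3.72 to 8.22), and relative to miR-15b 3.25 times as high (1.89 to 6.01). These values do not depend on a scale factor between the arrays.

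The other 4 members of the branch were dim in both sera, and spot noise covered their differences. Of the 32 negative controls, 11 to 26 on the normal array and 24 to 27 on the dystrophic array were at least as bright as their spots. miR-15a, the partner of miR-16 at MIR16-1, read 135 on the normal array and 126 on the dystrophic one, with a normalized signal of 17.5 and 8.14. Its ratio was 0.466, but its noise interval reached from 0 to 2.62. Of the 1408 blank spots of the dystrophic array, 90 reached its brightness. On the normal array the area around its spot read 145, brighter than the spot itself, which was the case for 8 of the 291 dog miRNAs. On the dystrophic array the area around it read 88.4.

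miR-195 read 136 on the normal array and 128 on the dystrophic one, with a normalized signal of 18.8 and 10.5 and a ratio of 0.559 (noise interval 0 to 2.44). miR-424 read 129 and 125, with a normalized signal of 11.5 and 7.77 and a ratio of 0.673, and its noise interval had no upper limit. In dystrophic serum both were close to the detection limit, miR-195 by 4.45 and miR-424 by 1.16 units of intensity. miR-497 read 119 on the normal array, under the limit, and 125 on the dystrophic array, only 0.576 units above it. Its normalized signal in dystrophic serum, 7.29, was below the lowest signal detected in normal serum, 8.30, and therefore no fold is given. As many as 108 blank spots of the dystrophic array were at least as bright as miR-497.

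**Figure D2:**
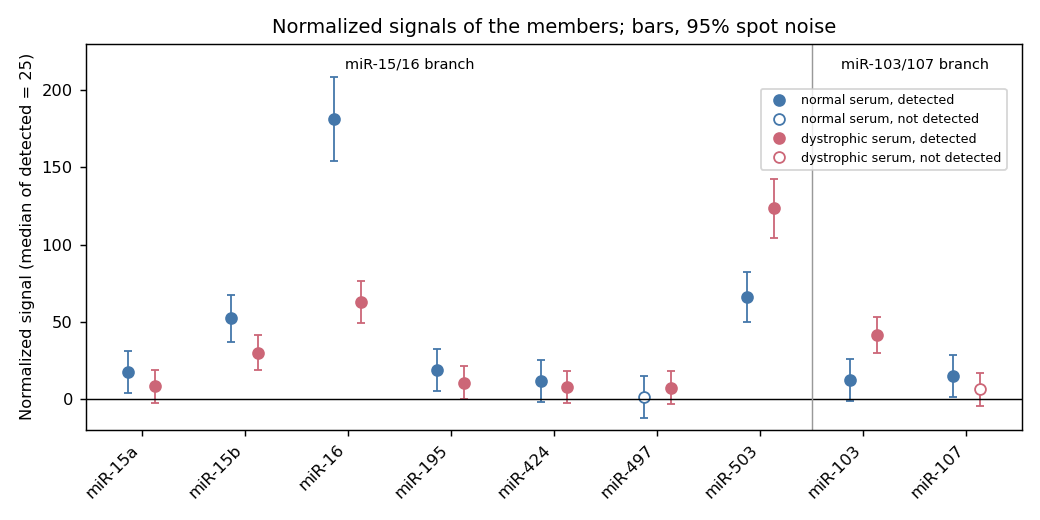
Normalized signal of each member in normal (blue) and dystrophic (red) serum on a linear axis, where 25 is the median of the detected dog miRNAs; bars are the 95% interval for spot noise of 1 spot, and open points were not detected. miR-16 went from 182 to 62.7, miR-503 from 65.9 to 123 and miR-103 from 12.4 to 41.4, and the bars of these 3 members do not overlap between the sera.

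In the miR-103/miR-107 branch, miR-103 was higher in dystrophic serum by more than the spot noise, and miR-107 lay close to the detection limit on both arrays. The spot of miR-103 read 130 on the normal array and 166 on the dystrophic one, and its normalized signal was 12.4 and 41.4. The ratio was 3.33, with a noise interval from 1.46 and no upper limit. Of the 142 miRNAs detected on both arrays, 9 had a higher ratio. By brightness miR-103 was number 132 of 159 in normal and number 64 of 188 in dystrophic serum.

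The normal spot of miR-103 was only 4.08 units above the detection limit. On that array 71 blank spots, 27 of the 181 spots without a probe and 18 of the 32 negative controls reached its brightness. For the dystrophic spot these numbers were 3, 4 and 0. The size of the ratio thus rests on a normal signal within the background, whereas the dystrophic signal was clear of most of it. The probe reads the product of MIR103-1 and MIR103-2 together. The study took elevated miRNAs of the array that were not yet known as serum markers to RT-qPCR. Of these it reported a significant elevation for miR-188 and miR-500 only. Every dog miRNA of its primer list, miR-103 included, had an array ratio above 2. Its text does not name the others tested, and it reports no significant elevation of miR-103.

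miR-107 read 132 on the normal array, 6.39 units above the limit, and 123 on the dystrophic array, at -0.730 units from it. Its normalized signal in normal serum was 14.8, with a noise interval from 1.11 to 28.5. Against the lowest signal detected in dystrophic serum, 6.87, it was at least 2.16-fold lower in dystrophic serum. This bound compares the measured signals and leaves out the spot noise, within which the normal signal could lie below 6.87. The noise interval in dystrophic serum, from -4.31 to 16.7, overlapped that in normal serum, so that the spot noise covered the difference of miR-107. miR-103 and miR-107 are nearly identical in sequence and differ by a base near the 3′ end, so their spots can share labelled RNA. How much they shared was not tested.

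Over the superfamily, 1 of the 7 members detected on both arrays had a ratio above 2, miR-103, compared with 13.4% of all dog miRNAs detected on both. A ratio of 0.5 or less was obtained for 2 members, miR-16 and miR-15a, compared with 5.63% of all. The noise interval of miR-15a, from 0 to 2.62, did not place it under 0.5. The ratio was below 1 for 5 of the 7 members, compared with 41.5% of all. The median ratio was 0.576 for these members and 1.09 for all 142 miRNAs. In the miR-15/miR-16 branch, 5 of the 6 members with a ratio were below 1, miR-503 being the exception, and their median was 0.567. At the scaling used, the noise interval lay below 1 for 2 members (miR-16 and miR-15b), compared with 9.86% of all. It lay above 1 for 2 members (miR-503 and miR-103), compared with 21.1% of all. For the other 3 it included 1. Members with similar sequences can share labelled RNA, and whether they did was not tested.

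**Figure D3:**
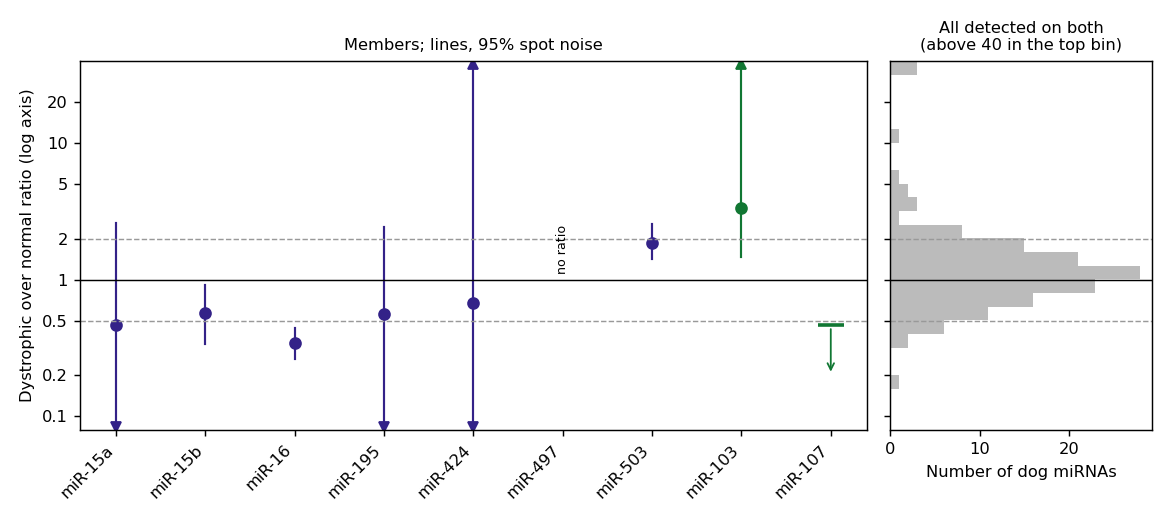
Left, dystrophic over normal ratio of each member on a log axis, with the 95% interval for spot noise as a line and arrowheads where it leaves the axis; miR-15/miR-16 branch in blue, miR-103/miR-107 branch in green, and for miR-107 a bar at its bound with an arrow downward. Right, the number of dog miRNAs at each ratio among the 142 detected on both arrays. miR-16 (0.346) lay at the low end of all miRNAs and miR-103 (3.33) near the high end.

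Between the branches, the change of miR-103 was set against that of miR-16. The ratio of miR-103 was 9.64 times that of miR-16, with a noise interval from 4.07 and no upper limit. The size of this value rests on the normal signal of miR-103, 12.4, whose noise interval from -1.25 to 26.1 included 0. Relative to miR-503 the ratio of miR-103 was 1.78 times as high, and the noise interval, from 0.737 upward, included 1. The spot noise thus separated miR-103 from miR-16 and from miR-15b (5.79 times, from 2.24 upward) but not from miR-503. These are 3 of 8 such pairs computed, with no test. The difference of miR-107 was within the spot noise, and therefore the comparison between branches rests on miR-103 alone. For miR-103 the text of the study reports no significant elevation by serum RT-qPCR.

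**Figure D4:**
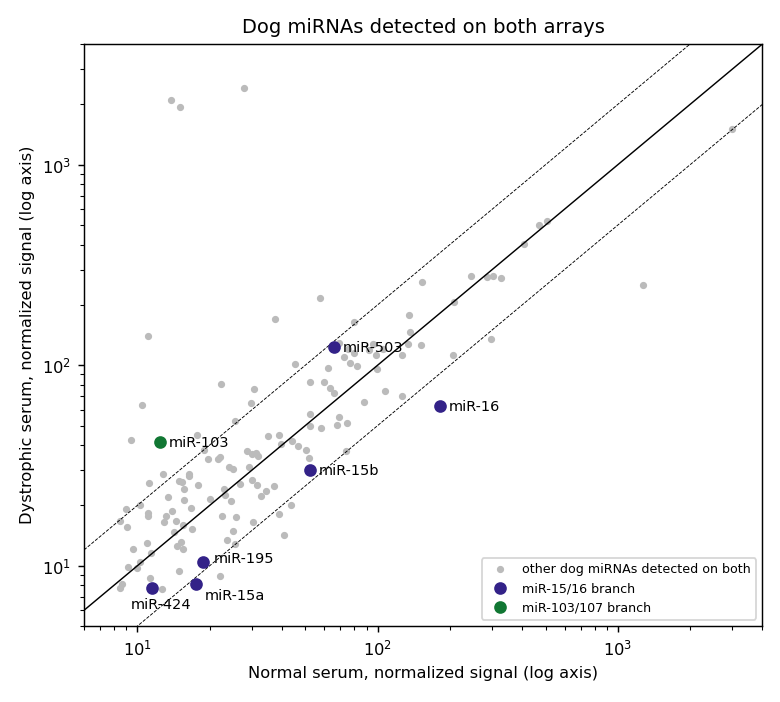
Normalized signal in dystrophic (vertical) against normal (horizontal) serum for the dog miRNAs detected on both arrays, both axes logarithmic; the solid line marks equal signals and the dashed lines 2-fold differences. Members of the miR-15/miR-16 branch (blue) other than miR-503 lie below the line of equal signals, and miR-503 (1.87) and miR-103 (green, 3.33) lie above it.

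All 9 members were matched by name to 11 miRNA genes in RefSeq (assembly UU_Cfam_GSD_1.0). MIR15A lies beside MIR16-1, and MIR15B beside MIR16-2 within the span of SMC4, a gene of chromosome condensation. The ratios of miR-15b and miR-16, 0.576 and 0.346, were both below 1 by more than the spot noise at the scaling used. The ratio of miR-15a, 0.466, had a noise interval on both sides of 1, and the single value of miR-16 belongs to both pairs. MIR424 lies beside MIR503, and their ratios were 0.673 and 1.87. The ratio of miR-503 was 2.78 times that of miR-424, but the noise interval of this value had no limit on either side because of the dim spots of miR-424. In the same run of genes, miR-542 passed the limit only on the dystrophic array (normalized signal 15.1), as did 46 of the 291 dog miRNAs. miR-450a and miR-450b were not detected in either serum. MIR195 lies beside MIR497, and no ratio was obtained for miR-497. MIR103-1, MIR103-2 and MIR107 lie within the spans of PANK3, PANK2 and PANK1, the pantothenate kinase genes, each with no other miRNA gene within 50 kb.

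The red-cell miRNA miR-451 was lower in dystrophic serum, as was miR-16. miR-451, a miRNA made almost exclusively in the red-cell lineage, gave a normalized signal of 1276 for normal dogs and 250.0 for dystrophic dogs, and its ratio was 0.196. miR-144, from the same precursor region as miR-451, was not detected in either serum. No dog spot was named miR-486, so that 1 of the 2 red-cell miRNAs with a spot gave a ratio. Of 4 miRNAs of platelets and white cells, miR-223 and miR-150 had ratios of 0.549 and 0.743, miR-142 had a ratio of 2.24 and miR-126 was not detected in either serum. The liver miRNA miR-122 had a ratio of 0.943 at a signal of 8.63 and 8.14, close to the detection limit. The part of the blood cells in the values of miR-16 was not tested. miR-16 and miR-103, the common reference miRNAs among the members, had ratios on opposite sides of 1.

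Of the 14 alternatives, 13 gave a ratio for some of the 7 members, and no ratio changed its side of 1, but the calls changed. Local background subtraction left no member detected on both arrays. With it, miR-16 was detected on the normal array alone (38.4 and 17.0) and miR-503 on the dystrophic array alone (15.7 and 26.6). The signals from local background subtraction were higher in dystrophic serum for miR-195 (11.2 and 12.4), miR-424 (14.4 and 20.5) and miR-15a (-3.40 and 14.9), opposite to their ratios elsewhere. miR-16 had a ratio from 0.260 to 0.637 and was at 0.5 or less in 11 of 13, the exceptions being no background subtraction (0.637) and normexp background correction (0.541). miR-103 ranged from 1.24 to 4.33 and was above 2 in 9 of 11, and again the same alternatives were the exceptions (1.24 and 1.41). miR-503 ranged from 1.33 to 2.43 and passed 2-fold in 4 of 13, namely without scaling (2.35), with the blank level of each block (2.11), with untrimmed blank spots (2.41) and with scaling on the spike controls (2.43). miR-15b ranged from 0.446 to 0.880 and miR-15a from 0.383 to 0.907. miR-107 had a ratio of 0.496 with the blank level of each block, and of 0.459 when signals at or under the limit were set to the limit. The split of members above 2 and at 0.5 or less was 1 and 2, and it was 2 and 1 without scaling or with the spike controls and 1 and 4 with quantile normalization or scaling to the 142 shared miRNAs. Under these 4 ways of scaling 5 of the 7 members stayed below 1, while the share of all dog miRNAs below 1 ranged from 22.5% to 60.6%.

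**Figure D5:**
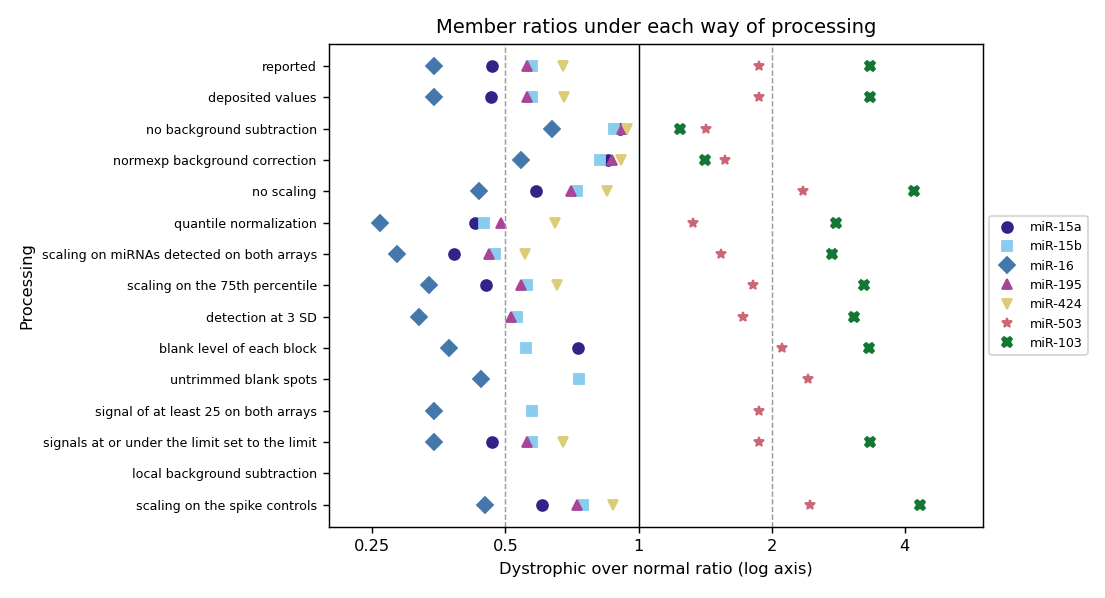
Dystrophic over normal ratio (log axis) of the 7 members detected on both arrays, as reported (top row) and under each alternative processing; a missing point means that no ratio was obtained. miR-16, miR-15a, miR-15b, miR-195 and miR-424 lie below 1 and miR-503 and miR-103 above 1 in every row that gives them a ratio, while the distance from 1 changes with the background handling.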

How the data were processed

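RNA of each serum pool was labelled with Cy5 and hybridized to a 3D-Gene chip (Toray). The authors deposited the raw intensity of each spot as scanner output. They also gave normalized values, with 1 decimal. Both were read with 3D-Gene Extraction, whose version is not given in the sources used here. From the scanner intensity, the mean of the trimmed blank spots was subtracted (71 spots removed at each end), and a factor per array brought the median of the detected dog miRNAs to 25. The signals differed from the deposited ones by at most 0.0498, within rounding.

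The noise of a spot combined an additive part (the range of the central 95% of blank spots divided by 3.92, or 6.66 and 6.47 intensity units) and a proportional part of 6.67%, from replicate spots of 10 bright control probes. Intervals of ratios were taken from Fieller's formula. Relative ratios combined the intervals of both members on the log scale. Steps were tested on simulated data, with a smaller proportional noise than the measured one. Ratios and intervals were checked there only for spots brighter than the normal spots of miR-15a, miR-195, miR-424 and miR-103. The intervals of these members were thus not covered by that check. All members were named, whatever their values; the members, lists and marker miRNAs were chosen with earlier results of these data known. No p-value was computed. Of the alternatives, 12 were planned and 2 were chosen after seeing the data. The number of arrays limits the precision. RefSeq was used for names and neighbors alone.

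Software was R 4.3.3 with limma 3.58.1 (normexp), and Python 3.11.15 with pandas 2.3.3, numpy 2.4.6 and matplotlib 3.10.9. RT-qPCR, tissue and cell culture data were not analysed here.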

Additional observations from a re-analysis of the deposited data

How the results depend on the processing

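Local background subtraction and scaling on the spike controls were alternatives chosen after seeing the data. The deposited values gave the counts of the report, 7 members detected on both arrays, 1 above 2 and 2 at 0.5 or less. The number detected on both arrays was 3 with untrimmed blank spots, 3 when both signals had to reach 25 and 0 with local background subtraction, and it was 5 with detection at 3 SD and 6 with the blank level of each block. The number above 2 was 0 without background subtraction, 0 with normexp, 0 when both signals had to reach 25 and 0 with local background subtraction, and it was 2 without scaling, 2 with the blank level of each block and 2 with the spike controls. The number at 0.5 or less was 0 without background subtraction, 0 with normexp and 0 with local background subtraction. It was 1 without scaling, 1 with detection at 3 SD, 1 with untrimmed blank spots, 1 when both signals had to reach 25 and 1 with the spike controls, and it was 4 with quantile normalization and 4 with scaling to the 142 shared miRNAs. It was 3 when signals at or under the limit were set to the limit, which added miR-107. With the blank level of each block the number stayed at 2, but miR-107 (0.496) took the place of miR-15a (0.731). The change of miR-103 relative to miR-16, 9.64, was 1.95 without background subtraction and 2.61 with normexp; a background or an offset of 50 left in both signals brings ratios nearer to 1 by construction. It was 8.92 with the blank level of each block and 10.7 with quantile normalization. In 6 alternatives it could not change, since a common scale cancels, and 3 gave no value. Of 79 ratios of single members, 7 lay outside the noise interval, all of miR-16, miR-503 or miR-103; the wide intervals of miR-15a, miR-195 and miR-424 left little room for a ratio to fall outside.

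The median log2 ratio of all dog miRNAs moved by 0.33 without scaling, by 0.38 if spike controls set the scale, by -0.26 after quantile normalization and -0.28 with scaling to the 142 shared miRNAs. No paired analysis was possible because a single array stood for each serum, and for the same reason no replicate could be left out. Signal over background limits miR-15a, miR-195, miR-424, miR-497 and miR-107 on both arrays and miR-103 on the normal array. The cause of the changes was not tested where none is named.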
